A study of Mus musculus with 24 samples.

Results

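Signal transducers and activators of transcription (STATs) and the suppressors of cytokine signalling (SOCS) that act against them were followed through 23 spleen B lymphomas of Bcl6-transgenic C57BL/6 mice. The genes were taken by name: Stat2, Stat3, Stat4, Stat5a, Stat5b, Stat6, Socs1, Socs3 and Cish. Of these 9 listed genes, 8 have a row among the 11140 genes of the count table; Cish was not analysed here. All 8 passed the filter on low counts and were tested with 11020 genes in all.

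A cytokine that binds its receptor brings the attached Janus kinases (JAKs) together. The kinases phosphorylate the receptor and then a STAT protein, which pairs with another STAT, enters the nucleus and binds DNA. STAT2 acts after type I interferons, STAT3 after interleukin-6, interleukin-10 and interleukin-21, STAT4 after interleukin-12, STAT5A and STAT5B after interleukin-2 and related cytokines, and STAT6 after interleukin-4 and interleukin-13. Active STATs switch on genes of the SOCS family, among them Socs1, Socs3 and Cish. SOCS1 and SOCS3 bind JAKs or receptor chains, block the kinases and direct their targets to degradation, which closes a feedback loop.

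The study compared 12 B lymphomas of T cell sufficient mice (Bcl6Tg/+) with 11 of T cell deficient mice (Bcl6Tg/+CD3Epsilon-/-), in a series on the surveillance of B lymphoma by CD137 ligand and CD4 T cells. All mice carried the Bcl6 transgene, so there were no samples without it; the labels name no promoter for it. Each library was made from B lymphoma cells purified from spleen, and the libraries fell into 2 sequencing runs that both held both groups. Run 1 had T cell sufficient lymphomas 1 to 7 and T cell deficient lymphomas 7 to 11; run 2 had sufficient lymphomas 8 to 12 and deficient lymphomas 1 to 6. The labels do not say that each library is a separate mouse; if some are not, p-values measure only the spread between these samples.

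Depth was 7576034 to 30607005 counts per library. Levels are CPM, counts scaled to a common library total, and the limit set by 3 counts was 0.0980 to 0.396 CPM (counting error only). All 8 B cell markers had rows, with summed levels of 4972 to 11183 CPM in sufficient and 3396 to 8220 CPM in deficient libraries. Cd3e, the gene disrupted in the T cell deficient mice, averaged 0.966 ± 0.754 CPM (SD) over the 12 sufficient and 2.47 ± 1.73 CPM (SD) over the 11 deficient lymphomas. The labels do not say which part of it is missing, so its level does not check them. Cd3d, Cd8a, Themis and 5 other T cell markers of 15 have no row in the table. In 3 sufficient libraries (9, 10 and 11), Xist and Y-linked transcripts were both above 10 CPM, which RNA of 1 male or 1 female mouse would not hold; Socs3 and Stat3 and the calls of the named pathway genes are also described without them, and the other 6 members had adjusted p-values of 0.148 to 0.952 without them (edgeR). In bulk samples, fewer cells of a type and less RNA per cell cannot be told apart.

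Before the levels, 3 promoters are shown: that of Socs3, the gene with the largest group difference among the 8, that of Stat3, the other member that passed the test, and that of Socs1, the close relative that did not. Each is the 250 bases before the gene's RefSeq start on GRCm38.p6, read 5′ to 3′ on the gene's own strand. Capitals in Socs3 mark TTC and GAA set 3 bases apart, the palindrome that STAT dimers bind. Capitals in Socs1 mark overlapping pairs of GAAA set 2 bases apart, the repeat found in interferon-stimulated response elements.
Socs3 (chr11:117969367-117969616, minus strand): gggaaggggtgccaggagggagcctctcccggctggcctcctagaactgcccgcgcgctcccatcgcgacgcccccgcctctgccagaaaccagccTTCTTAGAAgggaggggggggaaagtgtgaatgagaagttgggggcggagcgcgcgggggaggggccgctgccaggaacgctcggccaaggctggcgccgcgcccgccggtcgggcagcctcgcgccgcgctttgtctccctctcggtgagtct
Stat3 (chr11:100939541-100939790, minus strand): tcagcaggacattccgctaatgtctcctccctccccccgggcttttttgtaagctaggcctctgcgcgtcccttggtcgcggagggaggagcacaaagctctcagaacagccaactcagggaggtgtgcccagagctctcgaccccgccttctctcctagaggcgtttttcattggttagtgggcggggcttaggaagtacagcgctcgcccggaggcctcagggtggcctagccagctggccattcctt
Socs1 (chr16:10785537-10785786, minus strand): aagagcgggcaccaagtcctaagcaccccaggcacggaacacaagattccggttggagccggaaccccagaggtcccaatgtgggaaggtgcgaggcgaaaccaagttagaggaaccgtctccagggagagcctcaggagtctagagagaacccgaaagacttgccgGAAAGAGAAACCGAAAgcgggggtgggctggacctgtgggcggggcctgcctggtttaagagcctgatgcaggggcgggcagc

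The Socs3 match, TTCTTAGAA, begins 154 bases before the RefSeq start. Another annotation, GENCODE M21, places Socs3 at chr11:117966079-117970047, so this window lies inside its gene and covers the first exon of a non-coding Socs3 transcript. Among 32851 RefSeq promoter windows of 300 bases (250 before and 50 after a start), 8.3% held TTC and GAA 3 bases apart. In Socs1 the matches begin 83 and 77 bases before the start. The same pattern occurred in Stat2, 222 bases before its start, and in a Stat4 window, 97 bases before that start. Of all windows, 3.44% held 2 GAAA (or, on the other strand, TTTC) 2 bases apart. TTC and GAA 4 bases apart, the wider spacing known for STAT6, occurred in 6.95% of windows and, among the members, in Stat2 alone. No match to any of these 3 patterns was found in the windows of Stat3, Stat5a, Stat5b or Stat6, which says only that these letters are not there. A match is a description of the sequence, not evidence of binding.

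Socs3 and Stat3 were the members that fell in the T cell deficient lymphomas, and none rose. That is 2 of 8 lower, where 11.7% of all genes tested were lower, and 0 of 8 higher, where 10.6% were higher (edgeR quasi-likelihood test with run as a term, Benjamini-Hochberg adjusted p under 0.05). Socs3 fell about 10.1-fold and Stat3 1.37-fold. Stat6 was 1.21-fold lower and lay just outside the threshold. The remaining 5 members had adjusted p-values of 0.205 to 0.967.

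**Figure D1:**
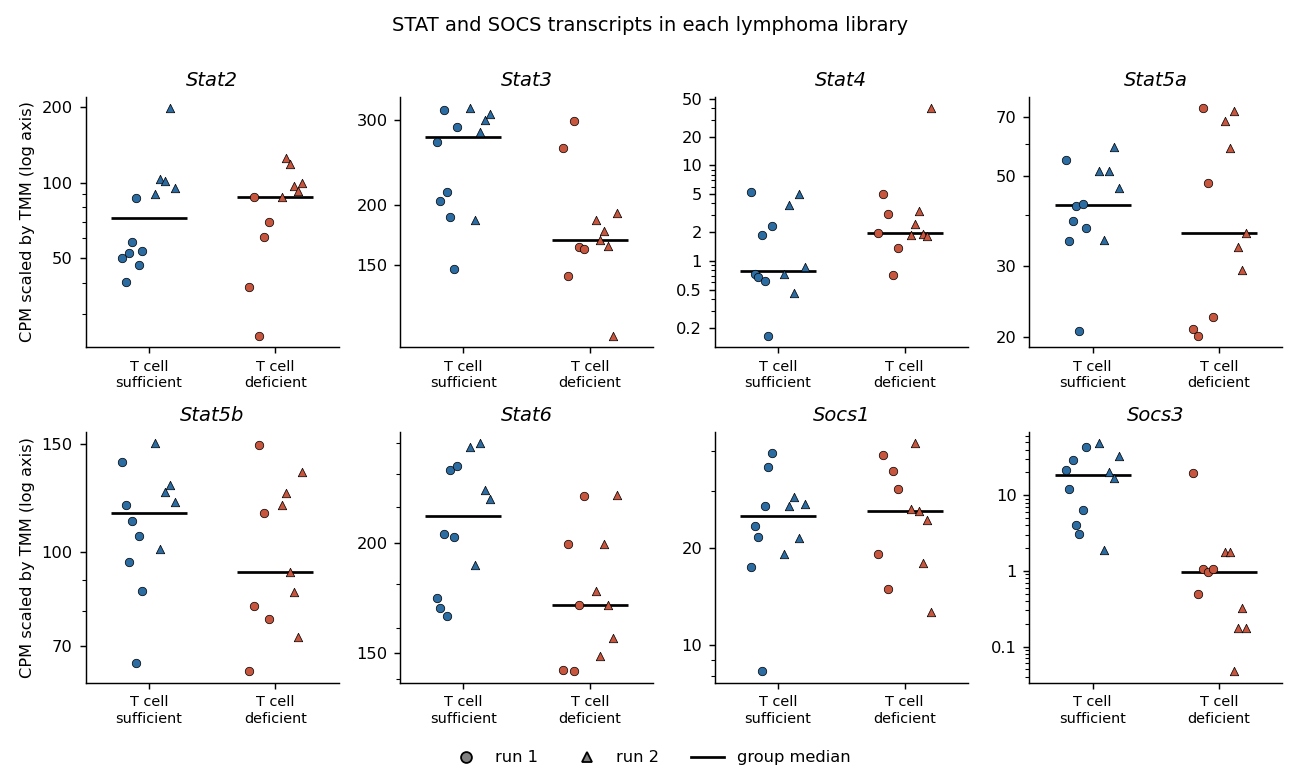
TMM-scaled CPM (log axis) of the 8 members in each lymphoma library, by group, with circles for run 1, triangles for run 2 and bars at group medians. For Socs3, 10 of 11 deficient libraries lie below every sufficient library; for Stat3 and Stat6 the groups overlap, and for Stat2 the triangles lie above most circles.

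Socs3 encodes the SOCS protein that binds the shared interleukin-6 receptor chain gp130 and holds back STAT3. In the sufficient lymphomas its TMM-scaled CPM was lowest at 1.88, with a median of 18.5 and a highest value of 48.3. In the deficient lymphomas it was lowest at 0.0470, with a median of 0.955 and a highest value of 19.4. Thus 10 of 11 deficient libraries lay below every sufficient library, and deficient lymphoma 7 lay among the sufficient ones. Across the table, 38 of 11020 genes, or 0.345%, had at least 10 of 11 deficient libraries below every sufficient library. The counts behind the low values were few: deficient lymphoma 3 held 1 read, lymphomas 4, 5 and 6 held 4 reads each, and lymphoma 7 held 458.

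On average, Socs3 stood at 20.0 ± 15.8 CPM (SD) over the 12 sufficient lymphomas and at 2.48 ± 5.65 CPM (SD) over the 11 deficient ones. The log2 fold change was -3.33 ± 0.86 (SE; edgeR adjusted p = 0.00905), and a two-sided permutation of group labels within runs gave p = 0.0002. Without deficient lymphoma 7 the deficient mean was 0.788 ± 0.650 CPM (SD, n = 10) and the log2 fold change -4.65 (edgeR adjusted p = 0.000293). Without the 3 libraries that held Xist and Y-linked transcripts the log2 fold change was -3.38 (edgeR adjusted p = 0.0194). The authors' deposited table gives -3.82 for Socs3 with an adjusted p of 0.0229.

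Within run 2, every deficient lymphoma had less Socs3 than every sufficient one: 0.0470 to 1.79 CPM against 1.88 to 48.3 CPM. The run 2 log2 fold change was -5.07 ± 1.01 (SE), or 33.6-fold lower (edgeR adjusted p = 0.0128; exact permutation p = 0.00216, two-sided). In that run alone, 6.61% of genes were called lower, and the share of genes with no overlap of the groups was not counted. Within run 1 the difference was smaller, at -1.92 ± 1.03 (SE) or 3.77-fold, and did not pass (edgeR adjusted p = 0.373; exact permutation p = 0.0253, two-sided). Run 1 alone gave 0 calls, or 0%, for any gene, with 1832 genes at an unadjusted p under 0.05. Run 1 holds deficient lymphoma 7, whose 19.4 CPM compares with 0.496 to 1.06 CPM in the other 4 deficient lymphomas of that run. The group by run term for Socs3 was -3.18 ± 1.39 (SE), with an unadjusted p of 0.0329 and an edgeR adjusted p of 0.757; for that term 0% of all genes were called, and 723 had an unadjusted p under 0.05.

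Myeloid cells also express Socs3, and markers of them were present in these B cell preparations. The summed level of 18 monocyte and macrophage markers was 609 to 4193 CPM (median 1228) in sufficient and 364 to 1223 CPM (median 689) in deficient libraries. Of the 18, 4 fell (Ccr2, Mpeg1, Itgam and Lyz2), none rose and 14 did not pass, where 11.7% of all genes tested were lower. The median log2 fold change of the 18 was -0.98. It was -0.07 in the fit of run 1 alone and -1.91 in that of run 2 alone. Mpeg1 was a large part of the sum, at 302 to 1144 CPM in sufficient and 186 to 475 CPM in deficient libraries. Of the 19 listed, Adgre1 has no row. Sufficient lymphoma 11 had the highest sum, 4193 CPM, with 16.6 CPM of Socs3. The 3 sufficient libraries with the lowest sums, lymphomas 6, 4 and 9 at 609, 757 and 769 CPM, had 6.45, 4.05 and 1.88 CPM of Socs3, all below their group's median. Other libraries went the other way. Sufficient lymphoma 8, with a sum of 1004 CPM, had the highest Socs3 of all, 48.3 CPM. Sufficient lymphoma 5, with a sum of 1541 CPM, had 3.11 CPM of Socs3. Deficient lymphoma 1, with the highest deficient sum of 1223 CPM, had 1.79 CPM. For neutrophils, deficient lymphoma 7 had the highest sum of all, 143 CPM over the 3 tested (S100a8, S100a9 and Ngp), against a deficient median of 5.87 CPM and a sufficient maximum of 68.4 CPM; Ly6g, Elane, Mpo and 3 other markers have no row. Its Socs3 was 19.4 CPM; the libraries with the next highest neutrophil sums, sufficient lymphoma 5 and deficient lymphoma 9 at 68.4 and 63.3 CPM, had 3.11 and 1.06 CPM of Socs3. The part of these cells in the Socs3 difference was not tested.

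**Figure D2:**
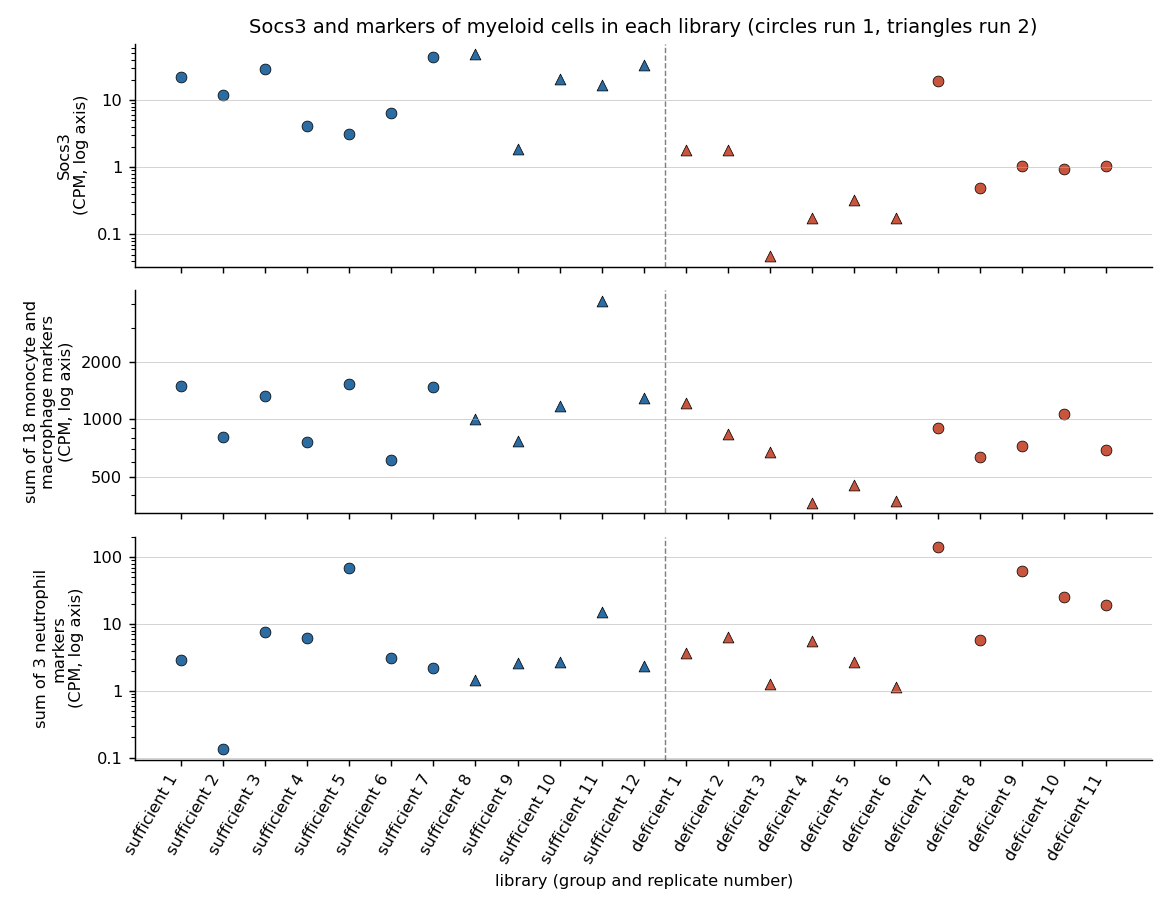
Socs3 (top), the sum of 18 monocyte and macrophage markers (middle) and the sum of 3 neutrophil markers (bottom) in each library, all as TMM-scaled CPM on log axes, circles for run 1 and triangles for run 2. Deficient lymphoma 7, with 19.4 CPM of Socs3, has the highest neutrophil sum, and sufficient lymphoma 11 the highest monocyte and macrophage sum.

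Stat3 encodes the transcription factor that SOCS3 restrains. In sufficient lymphomas it ranged from 147 to 318 CPM (median 277), and in deficient lymphomas from 107 to 299 CPM (median 169). The groups overlapped: 4 of 12 sufficient libraries lay above every deficient one, and 2 of 11 deficient libraries below every sufficient one. The share of all genes with such counts was not determined. Among deficient lymphomas, 7 and 9 stood high, at 263 and 299 CPM. Average Stat3 was 252 ± 60.3 CPM (SD) over 12 sufficient and 184 ± 53.6 CPM (SD) over 11 deficient libraries, and the log2 fold change was -0.45 ± 0.16 (SE; edgeR adjusted p = 0.0452; within-run permutation p = 0.0125, two-sided). The authors' deposited table gives -0.47 with an adjusted p of 0.0407.

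The Stat3 call depended on single libraries. In run 2 the log2 fold change was -0.75 ± 0.17 (SE; edgeR adjusted p = 0.0214; exact permutation p = 0.00649, two-sided), and in run 1 it was -0.19 ± 0.23 (SE; edgeR adjusted p = 0.722; exact permutation p = 0.439, two-sided). The difference between the runs had an unadjusted p of 0.0708. Without the 3 libraries that held Xist and Y-linked transcripts the log2 fold change was -0.44 and did not pass (edgeR adjusted p = 0.105). With 1 library left out at a time, Stat3 passed in 9 of 23 fits. It missed the threshold when sufficient lymphoma 1, 3, 7, 8, 10, 11 or 12, or deficient lymphoma 2, 3, 4, 5, 8, 10 or 11, was left out.

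Stat6 encodes the mediator of interleukin-4 signals in B cells, including class switching to IgE. Its level was 165 to 260 CPM (median 215) in sufficient and 143 to 227 CPM (median 170) in deficient lymphomas. Here 5 of 12 sufficient libraries lay above every deficient one and 4 of 11 deficient libraries below every sufficient one. As for Stat3, the share of all genes with such counts was not determined. Average Stat6 was 214 ± 34.5 CPM (SD) over 12 sufficient and 178 ± 30.9 CPM (SD) over 11 deficient libraries. The log2 fold change of -0.27 ± 0.10 (SE) did not pass with edgeR (adjusted p = 0.0573), while DESeq2 gave an adjusted p of 0.0410 and limma-voom 0.0498. Stat6 passed in 6 of 35 alternative fits, among them 4 of the 23 that left out 1 library. It did not pass in run 1 alone (edgeR adjusted p = 0.581) or run 2 alone (edgeR adjusted p = 0.0894). The authors' deposited values are -0.28 with an adjusted p of 0.0503. The within-run permutation p was 0.0129, two-sided.

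Stat5a and Stat5b encode near-identical transcription factors and lie head to head on chromosome 11, with gene starts 8.63 kb apart; Stat3 follows, its 3′ end overlapping that of Stat5a by 72 exonic bases on the other strand. Stat5a ranged from 20.8 to 58.9 CPM (median 42.4) in sufficient and 20.2 to 73.7 CPM (median 36.1) in deficient lymphomas. The deficient lymphomas spread to both sides of the sufficient ones: 3 lay above every sufficient library and 1 below. How common such a spread is among all genes was not determined. The log2 fold change of Stat5a was -0.02 ± 0.22 (SE; edgeR adjusted p = 0.967). Stat5b ranged from 65.6 to 150 CPM (median 116) in sufficient and 63.7 to 149 CPM (median 92.5) in deficient lymphomas, with a log2 fold change of -0.17 ± 0.15 (SE; edgeR adjusted p = 0.423). Of the 50-base stretches of Stat5a transcripts, 8.21% also occur in Stat5b, and 11.0% the other way, so some reads of these genes could be assigned to either. No other pair among the 28 pairs shares such a stretch.

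Stat4 mediates interleukin-12 signals and is best known from T and NK cells. It had the lowest mean level per kb over all libraries, and lay at 0.163 to 5.20 CPM (median 0.790) in sufficient and 0.716 to 39.8 CPM (median 1.95) in deficient lymphomas. Deficient lymphoma 6 alone held the high value of 39.8 CPM, from 911 reads; the next deficient library had 4.96 CPM. The log2 fold change was 1.23 ± 0.69 (SE; edgeR adjusted p = 0.205), and 0.31 without deficient lymphoma 6 (edgeR adjusted p = 0.684). The 4 of 12 sufficient libraries below every deficient one held 2 to 15 reads. They lay at 0.163 to 0.677 CPM, close to the deficient minimum of 0.716 CPM. How many of all genes have such a pattern was not counted.

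Deficient lymphoma 6 also had the highest summed T cell markers of the deficient libraries, 881 CPM over 7 genes, of which Lck gave 534 CPM, Cd2 301 CPM and Cd8b1 38.6 CPM. Deficient lymphomas 3, 8 and 4 came close, with sums of 837, 828 and 789 CPM, beside 3.29, 4.96 and 1.91 CPM of Stat4. Lck was higher in these, at 749, 740 and 712 CPM. In deficient lymphoma 6, Cd3e was 5.77 CPM, Cd3g 0.437 CPM and Cd4 0.437 CPM, and Cd28 was at 0. Its NK cell sum over 6 markers was 20.9 CPM, the deficient median, with Ncr1, Nkg7, Klrk1 and 3 others of 12 without a row. Of these 6, Klrb1c was at 9.40 CPM in deficient lymphoma 6, the highest of all 23 libraries, against 3.82 CPM in the next. Klrb1c was also the 1 NK cell marker of 6 that rose, where 10.6% of all genes tested were higher. It went from 0.497 to 2.71 CPM (log2 fold change 2.18 ± 0.63, SE, edgeR adjusted p = 0.0178). The median log2 fold change of the 6 NK cell markers was -0.90, and none was called lower. The summed B cell markers of deficient lymphoma 6, 8220 CPM, were the highest of the deficient group. Over the 7 T cell markers, 1 fell and none rose. The part of other cells in the Stat4 level of deficient lymphoma 6 was not tested. Of the exonic bases of Stat4, 26.7% are shared with Gm28177, a transcript on the same strand that has no row, so reads there could belong to either.

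Stat2, which acts in type I interferon signalling, was at 40.3 to 199 CPM (median 72.4) in sufficient and 24.5 to 125 CPM (median 87.6) in deficient lymphomas, with a log2 fold change of -0.08 ± 0.18 (SE; edgeR adjusted p = 0.774). It differed by run instead. The 12 libraries of run 1 had 55.8 ± 18.7 CPM (SD) and the 11 of run 2 had 110 ± 31.7 CPM (SD), a log2 difference of 0.99 ± 0.18 (SE) or 1.98-fold (edgeR adjusted p = 0.000182). Stat2 was the 1 member of 8 called on the run term, on which 36.3% of all genes were called. The run-to-run shift was present in both groups: 55.5 and 118 CPM in sufficient, 56.3 and 103 CPM in deficient lymphomas, as means of runs 1 and 2.

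Socs1 encodes the SOCS protein that blocks JAKs after interferon signals. It ranged from 8.29 to 39.2 CPM (median 25.1) in sufficient and from 12.6 to 42.1 CPM (median 26.0) in deficient lymphomas. The groups overlapped almost fully, with 1 sufficient library below and 1 deficient library above all of the other group. The log2 fold change was 0.09 ± 0.22 (SE; edgeR adjusted p = 0.808), beside -3.33 for Socs3 in the same libraries. Whether the changes of Socs1 and Socs3 differ was not tested.

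To set the genes beside each other, levels were divided by exon length (CPM per kb of exon, GENCODE M21). Stat6 had the highest mean level over the 23 libraries, 44.7 ± 8.36 CPM per kb (SD), and exceeded Stat3 in every library. Stat3 followed with 23.03 ± 6.91 CPM per kb, then Stat5b with 19.4 ± 4.68, Stat2 with 13.8 ± 6.31, Socs1 with 8.72 ± 3.01, Stat5a with 6.08 ± 2.26, Socs3 with 4.02 ± 5.13 and Stat4 with 0.962 ± 2.07. Below Stat6, no step held in all libraries: a gene exceeded the next in 15 to 18 of 23, and the ranges of these neighbours overlapped. Differences between neighbours were not tested. Stat5b thus stood above its twin Stat5a by mean level per kb. The median of Socs3 was 6.39 CPM per kb in sufficient lymphomas, above that of Stat5a at 5.94, and 0.330 CPM per kb in deficient lymphomas, below that of Stat4 at 0.504.

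**Figure D3:**
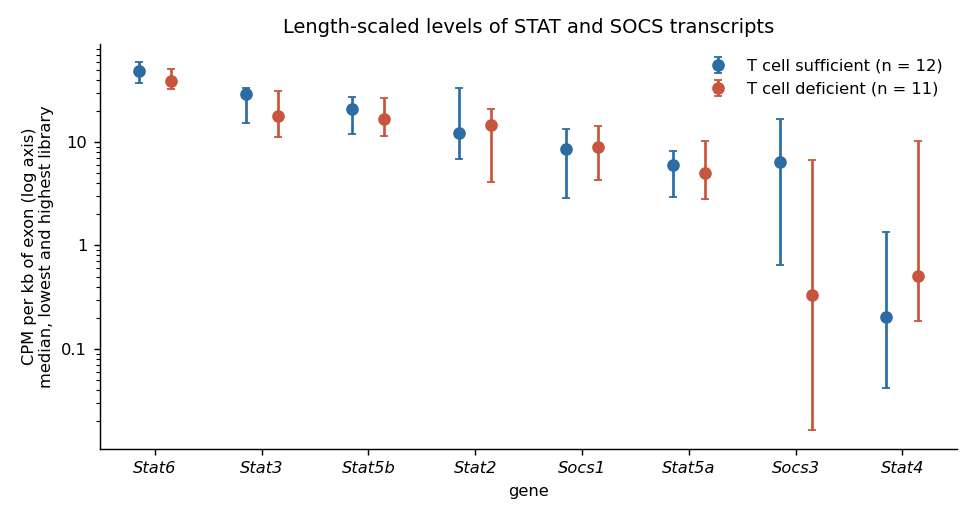
Median level of each member per kb of exon (log axis), with lines from the lowest to the highest library, for 12 sufficient and 11 deficient lymphomas. Stat6 stands highest in both groups; the group medians lie farthest apart for Socs3, at 6.39 and 0.330 CPM per kb.

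How the members varied from lymphoma to lymphoma was examined on log2 CPM after the mean of each run and group was removed. Of 28 pairs, 14 correlated positively and 14 negatively, and 1 passed after Benjamini-Hochberg adjustment over the 28. This was Stat5a with Stat5b, with Pearson r = 0.78 (permutation p = 0.00059, adjusted p = 0.0165) and Spearman rho = 0.74 (permutation p = 0.00121, adjusted p = 0.0339). Without the 2 libraries farthest from the Stat5a median r was 0.66. By run, r was 0.92 in run 1 and 0.49 in run 2. The adjusted permutation p was 0.1004 without sufficient lymphoma 5 and 0.0524 without deficient lymphoma 10. The shared sequence described above may place reads of 1 gene on the other; its part in the correlation was not tested.

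Stat3 with Socs3 came next and missed the threshold, with Pearson r = 0.61 (permutation p = 0.00487, adjusted p = 0.0682) and Spearman rho = 0.61 (permutation p = 0.00416, adjusted p = 0.0582). Without the 2 libraries farthest from the Stat3 median r was 0.66, and by run it was 0.68 in run 1 and 0.52 in run 2. Its adjusted permutation p fell to 0.0416, 0.0395 and 0.0342 without deficient lymphoma 3, 5 and 9, and rose to 0.351 without sufficient lymphoma 9.

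**Figure D4:**
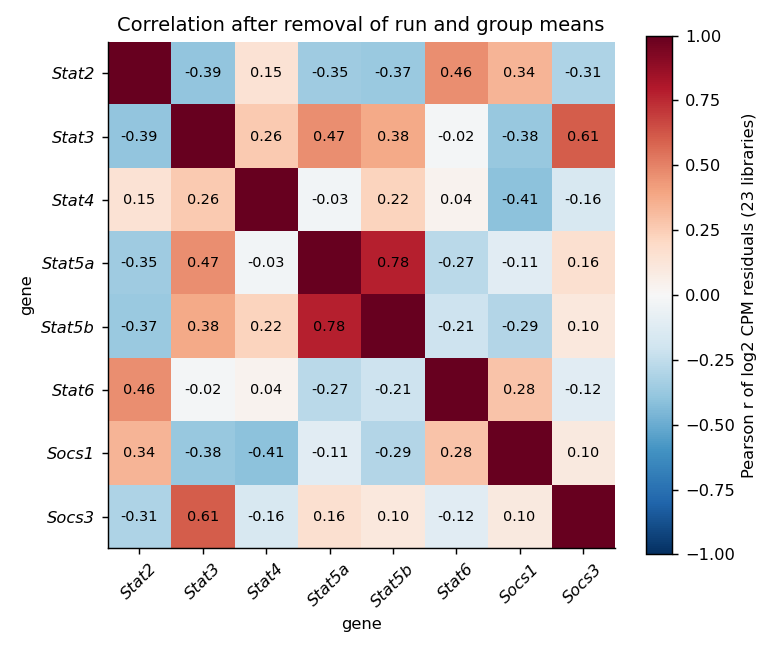
Pearson r between members over 23 libraries, as log2 CPM with run and group means removed; red is positive and blue negative. The strongest pair is Stat5a with Stat5b at 0.78, followed by Stat3 with Socs3 at 0.61.

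Residual patterns over the 23 libraries were compared with those of 10795 genes. Among the genes most like Stat2 were Atp8a1 (r = 0.80) and Kdm1b (r = 0.79). Stat3 was most like Ufd1l (r = 0.88), Stat4 like Rnf144a (r = 0.81), Stat5a like Stat5b (r = 0.78) and Stat5b like Hsdl2 (r = 0.85). Stat6 was most like Rap2b (r = 0.84). Socs1 was most like Gm5431 (r = 0.85), followed by Gm12250 and Nmi, and Socs3 like Usp3 (r = 0.80), followed by Pcbp4 and Ifi30. These are the highest of many values and are given as a description.

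The rest of the pathway was read from 11 lists of 141 genes, of which 103 were tested. In deficient lymphomas 17 fell, 5 rose and 81 did not pass, with a median log2 fold change of -0.18, against -0.01 over all genes tested. Beside the 11.7% and 10.6% of all genes called lower and higher, these are 17 and 5 of 103.

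Among the 4 JAKs, the 2 that serve the common gamma chain receptors fell (list median -0.39). Average Jak1 was 401 ± 137 CPM (SD) in sufficient and 236 ± 36.9 CPM (SD) in deficient lymphomas, which is -0.77 ± 0.15 on the log2 scale (SE; edgeR adjusted p = 0.00169). Jak3 was at 145 ± 61.1 and 73.7 ± 38.7 CPM, which is -1.03 ± 0.23 on the log2 scale (SE; edgeR adjusted p = 0.00431). Jak2, at 0.31 ± 0.14 (SE), and Tyk2, at 0.00084 ± 0.13 (SE), did not pass. The Jak1 and Jak3 calls held in all 23 fits that left out 1 library.

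Receptor chains gave 8 lower and 1 higher of 27 tested (median log2 fold change -0.47). Il2rg, the common gamma chain itself, fell by 0.84 ± 0.22 on the log2 scale (SE; edgeR adjusted p = 0.00894), from 244 to 135 CPM. The interleukin-12 receptor chain Il12rb1 fell from 21.7 to 2.74 CPM (log2 fold change -3.06 ± 0.69, SE), and the interleukin-9 receptor Il9r from 29.7 to 0.469 CPM (-5.95 ± 1.01, SE), with libraries at 0 in both groups. Il15ra (-1.73) and Il27ra (-1.63) were also lower. Gp130, the chain that SOCS3 binds, is encoded by Il6st, which fell by 0.86 ± 0.26 on the log2 scale (SE; edgeR adjusted p = 0.0216), from 79.0 to 44.2 CPM. Il21r, the receptor through which follicular helper T cells reach B cells, was the chain that rose, from 211 ± 78.3 to 371 ± 85.0 CPM (log2 fold change 0.88 ± 0.18, SE; edgeR adjusted p = 0.00204). All of these calls held when any 1 library was left out, for Il9r in the 14 such fits in which it was tested. Without the 3 libraries that held Xist and Y-linked transcripts, Il6st no longer passed (edgeR adjusted p = 0.0832), Il9r was not tested, and the others named here passed.

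Negative regulators other than SOCS gave 3 lower of 11 (median -0.15), all phosphatases. Ptprc, which encodes CD45, had a log2 fold change of -0.79, and Ptpn6, which encodes SHP-1, one of -0.70. Ptpn1 was at -0.30 and passed in 13 of 23 fits with 1 library left out, and not without the 3 libraries that held Xist and Y-linked transcripts (edgeR adjusted p = 0.132). The 5 other SOCS genes with rows (Socs2, Socs4, Socs5, Socs6 and Socs7) gave no call (median 0.28); the nearest were Socs6 at 0.35 ± 0.15 (SE; edgeR adjusted p = 0.102) and Socs7 at 0.28 ± 0.12 (SE; edgeR adjusted p = 0.103). The 5 STAT partners gave none either (median -0.36). Of 28 cytokine ligands listed, 6 were tested and none passed (median -0.15).

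Known STAT target genes moved in both directions. Of 9 STAT5 targets, Ccnd3, a cyclin, rose from 93.8 to 247 CPM (log2 fold change 1.46 ± 0.27, SE) and Bcl2l1, which encodes the survival protein BCL-XL, from 19.0 to 56.2 CPM (1.72 ± 0.40, SE). Bcl2, which encodes another survival protein, fell from 181 to 58.1 CPM (-1.66 ± 0.42, SE), and Il2ra fell by 2.22 ± 0.76 on the log2 scale (SE), the latter passing in 14 of 23 fits with 1 library left out and not without the 3 libraries that held Xist and Y-linked transcripts (edgeR adjusted p = 0.0981). The list median was -0.13. Of 14 STAT3 targets, Bcl2l1 was higher and Il6st lower, both named above, and the other 12 did not pass (median 0.06).

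Of 9 STAT6 targets, 7 did not pass. The list median was -0.90, but -0.23 in the fit of run 1 alone and -0.35 in that of run 2 alone. Pdcd1lg2, which encodes the PD-1 ligand PD-L2, fell from a mean of 45.4 CPM (1.04 to 126) to 2.86 CPM (0.141 to 5.78). Its log2 fold change was -4.00 ± 0.69 (SE, edgeR adjusted p = 0.000697). Among 5 STAT4 targets (median 0.09), Tbx21, which encodes T-bet, fell from a mean of 21.5 to 0.592 CPM (log2 fold change -5.17 ± 1.18, SE, edgeR adjusted p = 0.0044). Its groups overlapped, at 0.163 to 93.3 CPM in sufficient and 0 to 3.35 CPM in deficient libraries. Il18r1, an interleukin-18 receptor chain, rose from a mean of 2.17 CPM (0.150 to 8.61) to 28.0 CPM (0.409 to 141), again with overlap. Its log2 fold change was 3.38 ± 0.97 (SE, edgeR adjusted p = 0.0169, and 0.0901 without the 3 libraries that held Xist and Y-linked transcripts). Of 18 interferon response genes (median -0.22), 1 passed: Irf1, an interferon response factor, at -0.98 ± 0.33 (SE; edgeR adjusted p = 0.0372, and 0.0986 without the same 3 libraries), in 13 of 23 fits with 1 library left out.

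**Figure D5:**
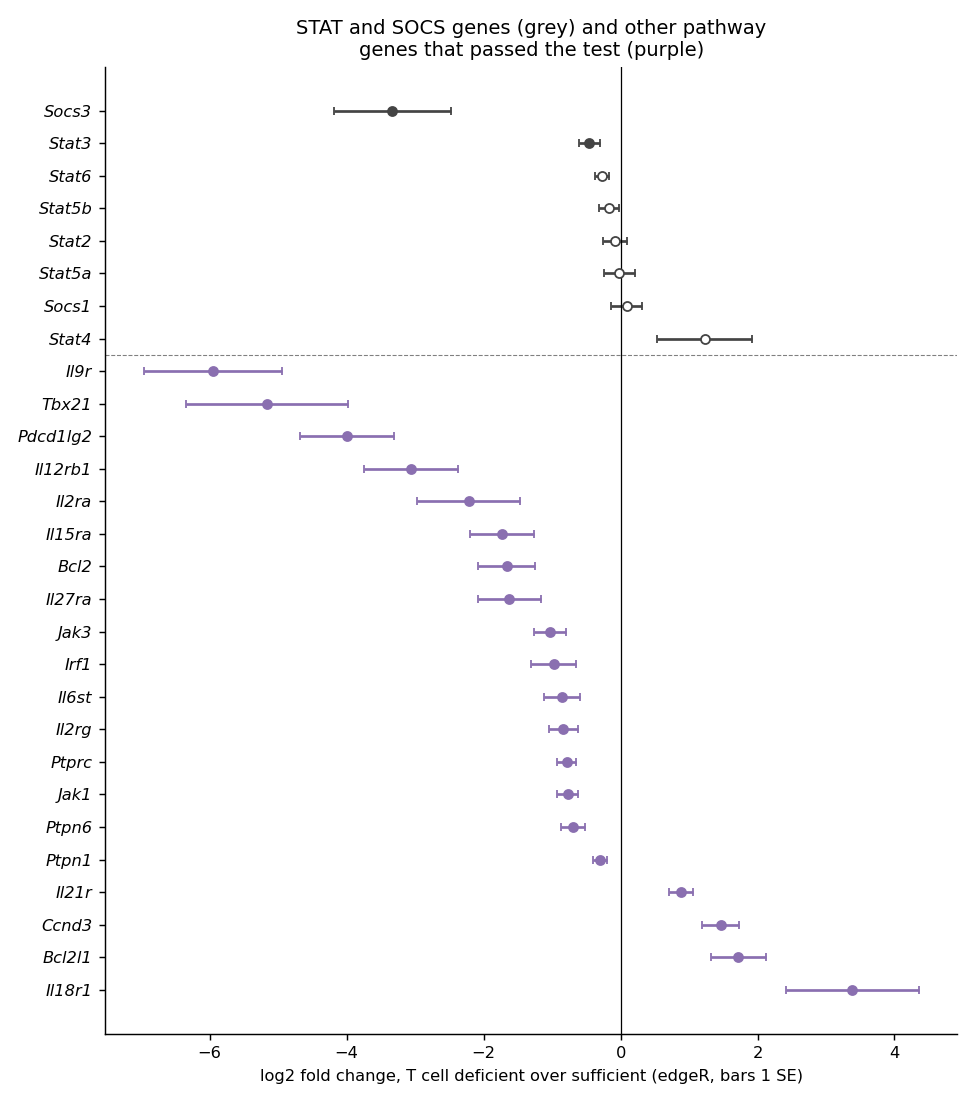
Log2 fold change with 1 SE of the 8 members (above the dashed line, filled where adjusted p was under 0.05) and of other pathway genes with a call (below it). Socs3, at -3.33, lies far from the other members; below the line, 16 genes lie to the left of 0 and 4 to the right.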

How the data were processed

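RNA of purified spleen B lymphoma cells was made into libraries with a TruSeq kit, per the labels' protocols. The authors deposited a table of gene counts with CPM values, a table of log2 fold changes and mean log2 levels, and p-values with adjusted p-values; the deposited CPM equal counts over the library total within 5e-04. The submitters' processing notes name limma and mm10/GRCm38; of aligner, counter, annotation and strand setting, none was given in the sources used here. The table lists genes above 1 CPM in at least 7 libraries. One sufficient library (4) was matched to its column by sample number, since the rest of the name differs; a repeat library of sufficient lymphoma 1 has no column of its own.

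Counts were tested with edgeR 4.0.16 in R 4.3.3 (filterByExpr, TMM, robust quasi-likelihood fit with run and group), with Benjamini-Hochberg adjustment over 11020 genes; 120 genes were filtered out. DESeq2 1.42.0, limma-voom (limma 3.58.1), other scalings, filters and sample sets were alternatives. Levels are TMM-scaled CPM. Correlations used log2 CPM with a prior count of 2 and 100000 permutations within run and group. The fit was tested on simulated data. Genes named outside the members are, per list, at most the 6 called genes with the smallest p; members and lists were chosen with earlier results of these data known. The plan assumed 9 genes with a row; 8 had one. The search for paired GAAA, and the fit without the libraries with Xist and Y-linked transcripts, were added after seeing the data, as was the choice of Ccr2, Mpeg1, Itgam, Lyz2, Klrb1c, Jak2, Tyk2, Socs6 and Socs7 as examples. Promoters are RefSeq's (GRCm38.p6), found for all 9 listed genes. Some genes that the naming rule took are not reported here.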

Additional observations from a re-analysis of the deposited data

Results flagged for a closer look

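Within each run and group, 7 of 32 sets of members' levels had a highest or lowest library far from its neighbour by Dixon's criterion. Chance alone meets it in about 1 set of 20 where values are normally distributed. It was applied to CPM without logs, whose distribution was not tested, so the 7 of 32 cannot be set against that rate. Socs3 was at 19.4 CPM in deficient lymphoma 7, against 1.06 in the next of its 5 libraries. Stat4 was at 39.8 CPM in deficient lymphoma 6, against 3.29 in the next of 6, and at 5.20 CPM in sufficient lymphoma 1, against 2.32 in the next of 7. Stat2 was at 199 CPM in sufficient lymphoma 11, against 103 in the next of 5, and at 86.7 CPM in sufficient lymphoma 5, against 58.1 in the next of 7. Stat3 was low, at 107 CPM, in deficient lymphoma 5, where the next of 6 had 164, and at 186 CPM in sufficient lymphoma 9, where the next of 5 had 283.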

How the results depend on the processing

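Socs3 was lower in all 35 alternative fits and passed in 34, among them all 23 that left out 1 library; run 1 alone was the exception. Stat3 passed in 16 of the 35. The 2 members called lower became 1 with library totals as scaling, with no run term, without the libraries with Xist and Y-linked transcripts and at adjusted p under 0.01, 0 in run 1 alone, and 1 to 3 with 1 library left out. The 5 pathway genes called higher became 8 with library totals, 0 in run 1 alone, 3 without the libraries with Xist and Y-linked transcripts and 3 at 0.01; the 17 called lower became 0, 11 and 10 in the last 3 of these. Scaling by library totals moved the median log2 fold change of all genes from -0.0064 to 0.064.

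Same-numbered libraries of the 2 groups did not deviate together (r of -0.25 to 0.23 over 11 pairs, 4 over 0.1, and 1 correlating best with its own number). With a replicate block, 1 member was lower: Socs3 at -3.86 (edgeR adjusted p = 0.00704), and Stat3 at -0.45 did not pass (adjusted p = 0.0951); pathway calls higher were 3. The correlated pairs, 1 in the main setting, were 2 with no means removed, 0 in run 2 alone and 0 to 2 with 1 library left out.

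Members with no call changed sign around 0. Stat2 was at 0.0086 with no run term, 0.016 in run 1 alone, 0.071 without the libraries with Xist and Y-linked transcripts, and -0.18 to 0.053 with 1 library left out. Stat5a was at 0.060 with library totals, 0.038 with no run term, 0.033 in run 2 alone, and -0.20 to 0.066 with 1 library left out. Socs1 was at -0.021 to 0.16 with 1 library left out. Depth limits Socs3, with 1 to 4 reads in 4 deficient libraries, and Stat4, with 2, 5 and 6 reads in sufficient lymphomas 6, 3 and 10.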
